A study of Mus musculus with 12 samples.

Results

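Interferon-stimulated genes (ISGs) are the genes that cells switch on after type I or type II interferon, and 35 of them were followed here among the 56980 genes of the count matrix. The 35 were chosen by name as a group with known members, and with earlier results of these data known. The lists of other genes below were chosen likewise, so counts over either describe these data and are no independent test. The row of each of the 35 was found through its Ensembl identifier, and all 35 had a row. Of these, 34 had at least 10 counts over the 12 libraries and were tested, and Cmpk2 had a total of 1 count and was not.

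The measurements were bulk RNA-Seq of W-20, a murine bone marrow stromal cell (BMSC) line, after 2 h with 50 nM parathyroid hormone (PTH) or with the PBS vehicle. There were 4 groups of 3 libraries: WT cells with vehicle, WT cells with PTH, Y428F cells with vehicle and Y428F cells with PTH. The Y428F cells came from the same line and carried an introduced, Flag-tagged YAP with a tyrosine-to-phenylalanine change, Y428F, and were positive clones held by puromycin selection. YAP is the transcriptional co-activator that the Hippo pathway restrains. The Y428F groups were taken from the sample titles, because the genotype label of those libraries also reads WT. The titles name Y428F alone, while the study's text gives the sequenced cells a second change in the same YAP, S381A, at a serine that LATS1 phosphorylates. No library of cells with an introduced unmutated YAP was analysed here, so what the mutation did cannot be told apart from whatever else sets these 2 populations of cells apart. Nothing in the labels says whether the 3 libraries of a group came from separate cultures, so p-values measure the spread between these libraries only. Library totals lay between 17127897 and 19057319 counts, with a median of 17740980.

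Type I interferons bind the receptor IFNAR1/IFNAR2 and, through the kinases JAK1 and TYK2, activate STAT proteins, STAT2 among them. Together with IRF9 they form the complex ISGF3, which binds the interferon-stimulated response element (ISRE) in the promoters of ISGs. Type II interferon acts through a different element, GAS. The products of ISGs sense viral RNA, block its translation, modify proteins with the ubiquitin-like ISG15 and load peptides onto MHC class I. Many cells also keep a low level of these transcripts without added interferon, and Stat2, Irf9 and Irf7 are at once parts of the pathway and its targets.

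The ISRE was searched in the promoters of the 35 genes, from 250 bases before to 50 bases after the annotated start, as GAAA, 2 bases of any kind and GAAA on either strand. It was found in 14 of the 35 promoters (40.0%), in 43 of 90 promoters of other ISGs (47.8%) and in 835 of 21757 promoters of protein-coding genes (3.84%). The GAS element, searched as TTC, 3 bases of any kind and GAA, was found in 7 of the 35 (20%), in 10 of the 90 other ISGs (11.1%) and in 1918 of 21757 protein-coding genes (8.82%). The promoters below belong to the 4 ISRE-bearing members with the smallest adjusted p-value between the cell lines, and show the element that these genes share. They are given 5′ to 3′ on the strand of the gene from the GRCm39 genome with the starts of GENCODE vM39, at chr19:34560649-34560948 (plus strand) for Ifit3, chr19:34618021-34618320 (plus) for Ifit1, chr4:156285254-156285553 (minus) for Isg15 and chr6:121222607-121222906 (plus) for Usp18. Capitals mark the bases of each ISRE match.
Ifit3: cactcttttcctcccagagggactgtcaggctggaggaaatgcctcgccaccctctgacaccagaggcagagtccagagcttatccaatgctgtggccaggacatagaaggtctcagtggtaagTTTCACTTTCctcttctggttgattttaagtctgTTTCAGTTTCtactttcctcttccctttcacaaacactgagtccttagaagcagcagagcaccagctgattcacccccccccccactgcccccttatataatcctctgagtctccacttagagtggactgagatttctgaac
Ifit1: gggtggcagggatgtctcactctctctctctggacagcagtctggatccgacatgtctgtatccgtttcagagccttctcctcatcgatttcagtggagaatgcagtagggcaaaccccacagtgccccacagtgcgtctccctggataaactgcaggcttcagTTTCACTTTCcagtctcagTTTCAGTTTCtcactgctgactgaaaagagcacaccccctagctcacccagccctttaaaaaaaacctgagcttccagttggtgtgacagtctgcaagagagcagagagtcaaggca
Isg15: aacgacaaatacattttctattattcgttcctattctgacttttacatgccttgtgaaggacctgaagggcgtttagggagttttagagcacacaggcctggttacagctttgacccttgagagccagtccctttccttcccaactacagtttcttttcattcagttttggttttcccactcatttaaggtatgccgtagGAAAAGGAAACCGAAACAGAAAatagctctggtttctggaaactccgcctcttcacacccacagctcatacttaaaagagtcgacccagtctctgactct
Usp18: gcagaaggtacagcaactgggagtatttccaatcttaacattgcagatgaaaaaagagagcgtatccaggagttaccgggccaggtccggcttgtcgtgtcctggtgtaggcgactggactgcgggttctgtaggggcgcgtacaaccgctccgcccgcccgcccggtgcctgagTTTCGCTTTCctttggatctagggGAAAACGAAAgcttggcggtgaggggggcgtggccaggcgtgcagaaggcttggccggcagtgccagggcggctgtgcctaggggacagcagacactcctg
The Ifit3 promoter held 2 matches, which began 126 and 92 bases before the start, and the Ifit1 promoter held 2, at 86 and 67 bases. The 3 matches of Isg15 overlapped each other and began 50, 44 and 38 bases before the start, and the 2 of Usp18 lay on opposite strands at 75 and 51 bases. A match is a run of letters, not a measured binding site, and no binding was measured here.

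One library stood apart before any comparison was made. In library 3 of the WT PTH group, 33 of the 34 tested ISGs were at their lowest level of that group, with a median log2 difference of -0.67 from the other PTH libraries of WT cells. The median over all 17691 genes tested was -0.025 in the same library, and 40.7% of all genes were lowest in it. The 83 other ISGs that were tested shared the difference, with a median of -0.51. The summed level of the 35 genes was 3389 CPM there, against 4924 and 4884 CPM in the other WT PTH libraries. Every one of the other 11 libraries lay within the median range of -0.13 to 0.34 of its group mates. The upper end was WT PTH library 1, whose group mates include library 3. The lower end was WT vehicle library 1, where 26 of the 34 were lowest of that group, against 37.0% of all genes. WT PTH library 3 had a total of 17526225 counts, a mitochondrial share of 0.997% of counts and 6.22% taken by its 10 most abundant genes. These values lay inside the range of the WT libraries, where the shares ran from 0.78% to 1.02% and from 5.54% to 6.51%. The main results that rest on the WT PTH group are therefore also given without library 3.

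**Figure D1:**
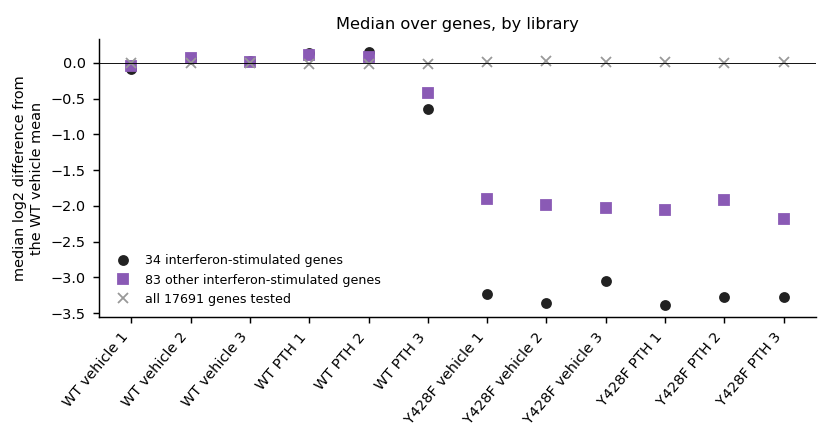
Median log2 difference of each library from the mean of the WT vehicle libraries (vertical axis), for the 34 tested interferon-stimulated genes (circles), the 83 other interferon-stimulated genes (squares) and all 17691 genes tested (crosses), with 1 column per library. The 6 Y428F libraries lie between -3.38 and -3.05 for the 34 genes, WT PTH library 3 lies at -0.65, and the crosses stay near 0.

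The difference between the cell lines was the largest in the data for this group of genes. With vehicle, all 34 tested ISGs were lower in Y428F cells than in WT cells at an adjusted p under 0.05 (Benjamini-Hochberg adjustment of edgeR's quasi-likelihood p-values), and none was higher. In the same comparison 22.7% of all 17691 genes were lower and 22.4% were higher. Every Y428F vehicle library lay below every WT vehicle library for all 34, against 26.3% of all genes. The median log2 fold change of the 34 was -3.46 and that of all genes 0.012. Of the 34, 28 were beyond a log2 fold change of -2, as were 3.89% of all genes, and 33 were beyond -1, as were 9.88%. All 34 log2 fold changes were below 0 in edgeR, so the count of higher ISGs was 0 at any p limit there. It was 0 with DESeq2 too. Psmb8, Mx1 and Rsad2 passed the filter on low counts only through their WT counts, so a lower value in Y428F cells was the only result they could give. Fewer cells that express a gene and less RNA per cell cannot be told apart in bulk libraries.

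**Figure D2:**
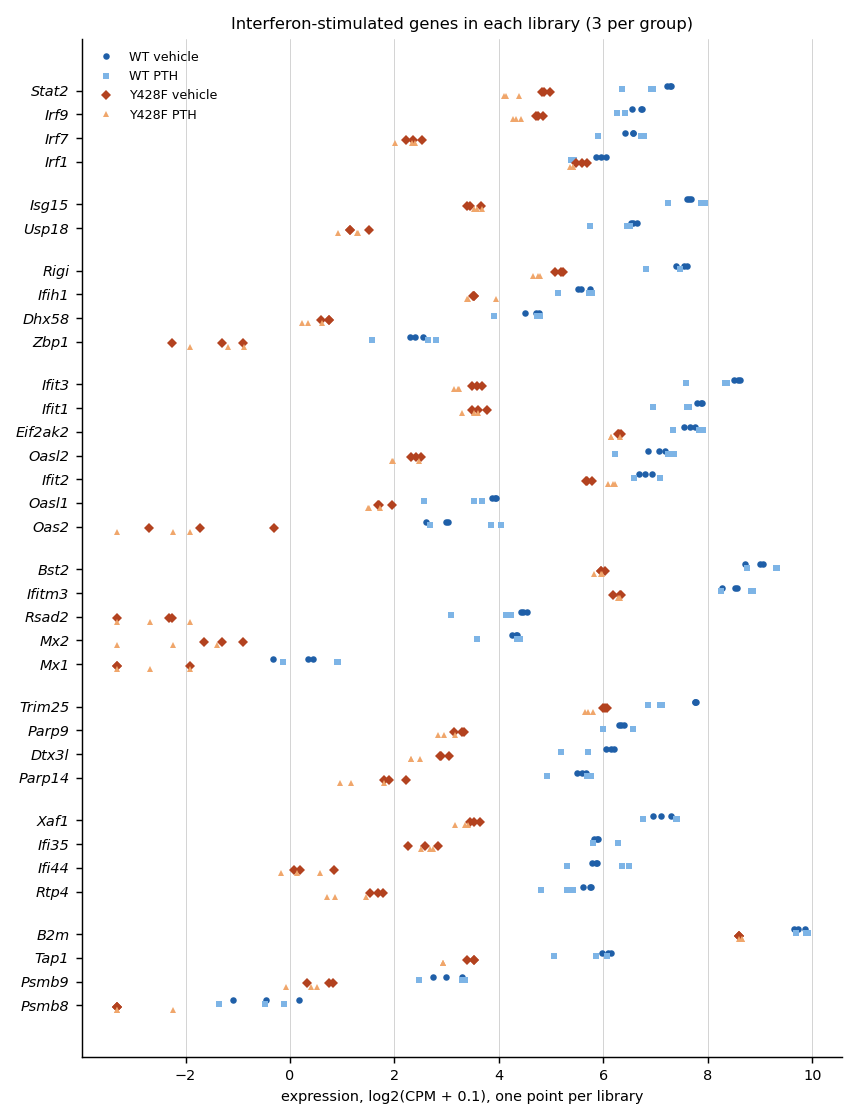
Level of each of the 34 tested genes in each library as log2(CPM + 0.1) (horizontal axis), 1 point per library, 3 per group; blocks of genes follow their roles, from STAT and IRF regulators at the top to antigen presentation at the bottom. The diamonds and triangles of Y428F cells lie to the left of the WT circles and squares in every row except that of Irf1, where the PTH groups overlap, and the lowest WT PTH point of a row is library 3 in 33 of the 34 rows.

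Among the regulators, the transducers of interferon signals were lower by differing amounts. Stat2, the STAT that serves type I interferon within ISGF3, measured 148, 156 and 156 CPM (TMM-normalised counts, scaled for the total of each library) in the WT vehicle libraries and 29.1, 31.2 and 28.1 CPM in the Y428F vehicle libraries. This was 5.2-fold lower (log2 fold change -2.38 ± 0.12 SE, adjusted p = 8.90e-13). Irf9, the DNA-binding subunit of ISGF3, measured 93.6, 105.7 and 106 CPM in the WT line and 28.7, 26.7 and 26.2 CPM in the Y428F line, 3.75-fold lower (log2 fold change -1.91 ± 0.07, adjusted p = 1.45e-14). The libraries of the 2 lines were well apart for both genes.

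Irf7, the factor that amplifies type I interferon responses, measured 84.9, 94.8 and 95.2 CPM in the WT line and 5.70, 5.00 and 4.53 CPM in the Y428F line with vehicle. At 18.0-fold (log2 fold change -4.17 ± 0.19, adjusted p = 2.83e-13), it had the largest difference of the 4 regulators. Irf1, a factor induced mainly by type II interferon, had the smallest of all 34, at 57.9, 65.9 and 61.9 CPM against 51.3, 44.6 and 48.2 CPM. The groups did not overlap for Irf1, but the difference was 1.29-fold (log2 fold change -0.37 ± 0.07, adjusted p = 0.000102). All 12 Irf1 values were fractional expected counts, so the division of some of its reads among transcripts or genes was estimated.

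The ISG15 pathway was represented by the modifier and its protease. Isg15, the ubiquitin-like modifier, measured 193, 199.7 and 205 CPM in the WT line and 10.8, 12.5 and 10.3 CPM in the Y428F line with vehicle, 17.7-fold lower (log2 fold change -4.15 ± 0.14, adjusted p = 4.23e-15). Usp18, which removes ISG15 from proteins and dampens signalling at IFNAR2, went from 94.7, 100.4 and 92.5 CPM to 2.74, 2.12 and 2.13 CPM. That was 41.1-fold lower (log2 fold change -5.36 ± 0.18, adjusted p = 4.71e-15), and no Y428F library came near a WT library for either gene.

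Of the RNA and nucleic acid sensors, Rigi (RIG-I) and Ifih1 (MDA5), the cytosolic sensors of viral RNA, were 5.11-fold and 4.33-fold lower with vehicle. Rigi measured 168, 194 and 186 CPM in the WT line and 37.6, 33.4 and 36.2 CPM in the Y428F line, so it stayed readily detectable in both lines. Dhx58 (LGP2), their regulator, was 16.5-fold lower, from 22.6, 26.2 and 27.0 CPM to 1.59, 1.42 and 1.58 CPM. Zbp1, a sensor of Z-form nucleic acids, had 290 counts over the WT vehicle libraries and 16 over the Y428F vehicle libraries, a ratio of normalised counts of 18.5 (95% interval 11.2 to 32.9, counting error only).

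The effectors against viral RNA and translation differed widely among themselves. The Ifit genes, whose products bind viral RNA and block its translation, lie in 1 cluster at chr19:34527932-34632174 (GRCm39), in the order Ifit2, Ifit3 and Ifit1, with other genes of the family between Ifit3 and Ifit1. Ifit1 also lies within the span of Ifit1bl2 on the opposite strand, so some of its reads may be uncertain. Ifit3 measured 382, 395 and 363 CPM in the WT line and 12.7, 11.9 and 11.1 CPM in the Y428F line with vehicle, 31.9-fold lower (log2 fold change -5.00 ± 0.16, adjusted p = 1.23e-15), the smallest p-value of the 34. Ifit1 measured 234, 237 and 222 CPM against 12.0, 11.1 and 13.6 CPM, 18.9-fold lower (log2 fold change -4.24 ± 0.14, adjusted p = 3.84e-15). Ifit2, of the same cluster, kept a much larger share of its WT level, at 122, 111 and 103 CPM against 51.4, 54.8 and 50.7 CPM, or 2.15-fold lower (log2 fold change -1.10 ± 0.10, adjusted p = 1.08e-08). The Ifit3 values carry the same reservation as those of Irf1, since all 12 were fractional, and Ifit3 has a near-identical copy in the mouse genome.

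Eif2ak2 (PKR), the kinase that stops translation on double-stranded RNA, was 2.55-fold lower with vehicle, at 187, 217 and 202 CPM in WT against 78.4, 81.0 and 77.9 CPM. Of the oligoadenylate synthetase family and its relatives, which act against viral RNA, Oasl2 was 25.3-fold lower and the adjacent Oasl1 4.45-fold lower. Oasl2 measured 116, 145 and 134 CPM in the WT line and 5.59, 4.85 and 5.19 CPM in the Y428F line, and Oasl1 14.4, 15.3 and 15.2 CPM against 3.18, 3.13 and 3.77 CPM. Oas2 had 401 counts against 18, a ratio of 22.8 (95% interval 14.2 to 38.8, counting error only). Its Y428F vehicle libraries held 1, 4 and 13 counts.

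The other antiviral effectors included those at the edge of detection. Rsad2 (viperin), an enzyme that makes a chain-terminating nucleotide, measured 21.4, 22.0 and 23.0 CPM in WT vehicle libraries, while its 3 Y428F vehicle libraries held 4 counts in all. Its ratio of 312 (95% interval 122 to 1150) was the highest of the low-count members. Its divergent neighbour Cmpk2, a mitochondrial nucleotide kinase that starts 12751 bases away on chr12, had 0 counts in 11 libraries. The dynamin-like GTPases Mx2 and Mx1 had 1088 counts against 18 (ratio 61.8, 95% interval 38.9 to 105) and 57 against 3 (ratio 19.4, 95% interval 6.32 to 97.0). Both abundant membrane restriction factors stayed expressed: Bst2 (tetherin) measured 419, 511 and 534 CPM in the WT line and 62.1, 65.0 and 62.0 CPM in the Y428F line, 7.74-fold lower, and Ifitm3 307, 366 and 375 CPM against 79.2, 72.8 and 81.3 CPM, 4.49-fold lower.

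The neighbours Parp14, Dtx3l and Parp9 on chromosome 16 encode mono-ADP-ribosyltransferases and the ubiquitin ligase that partners PARP9. With vehicle they were 12.4-fold, 9.26-fold and 8.56-fold lower in Y428F cells. Dtx3l and Parp9 overlap by 682 bases on opposite strands and gave fractional counts in all 12 libraries, so reads of the shared stretch cannot be given to either with certainty. Trim25, the ubiquitin ligase that assists RIG-I, was 3.3-fold lower, at 216, 219 and 215 CPM against 67.5, 63.9 and 65.7 CPM, with little spread in either group.

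Of the remaining members, Ifi44 was 46.3-fold lower with vehicle, from 58.3, 58.1 and 54.7 CPM to 1.70, 0.960 and 1.04 CPM. Rtp4, a chaperone-like ISG, was 16.9-fold lower, Xaf1, a pro-apoptotic partner of XIAP, 12.2-fold and Ifi35 9.92-fold. All 4 were lower in every Y428F library than in any WT library.

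The members of MHC class I antigen processing differed widely in level. With vehicle, B2m, the invariant light chain of MHC class I, was the most abundant member per length in both lines. It was at 407 CPM per kb of exon in the WT line and 183 CPM per kb in Y428F cells. In WT cells Bst2 was close to it with vehicle (402 CPM per kb) and above it with PTH (468 against 433 CPM per kb). With vehicle B2m was 2.22-fold lower in Y428F cells (log2 fold change -1.15 ± 0.06, adjusted p = 7.85e-12). Tap1, a subunit of the peptide transporter, was 6.1-fold lower, at 62.9, 68.2 and 70.8 CPM against 11.3, 11.4 and 10.4 CPM. The immunoproteasome subunit Psmb9 was 5.42-fold lower, at 6.56, 7.79 and 9.66 CPM against 1.59, 1.67 and 1.15 CPM; it overlaps Tap1 by 743 bases on the opposite strand, and 5 values of each were fractional. Psmb8, another immunoproteasome subunit, had 37 counts in the WT vehicle libraries and 0 in the Y428F vehicle libraries, at least 12.6-fold higher in WT against a floor of 3 counts over the group.

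**Figure D3:**
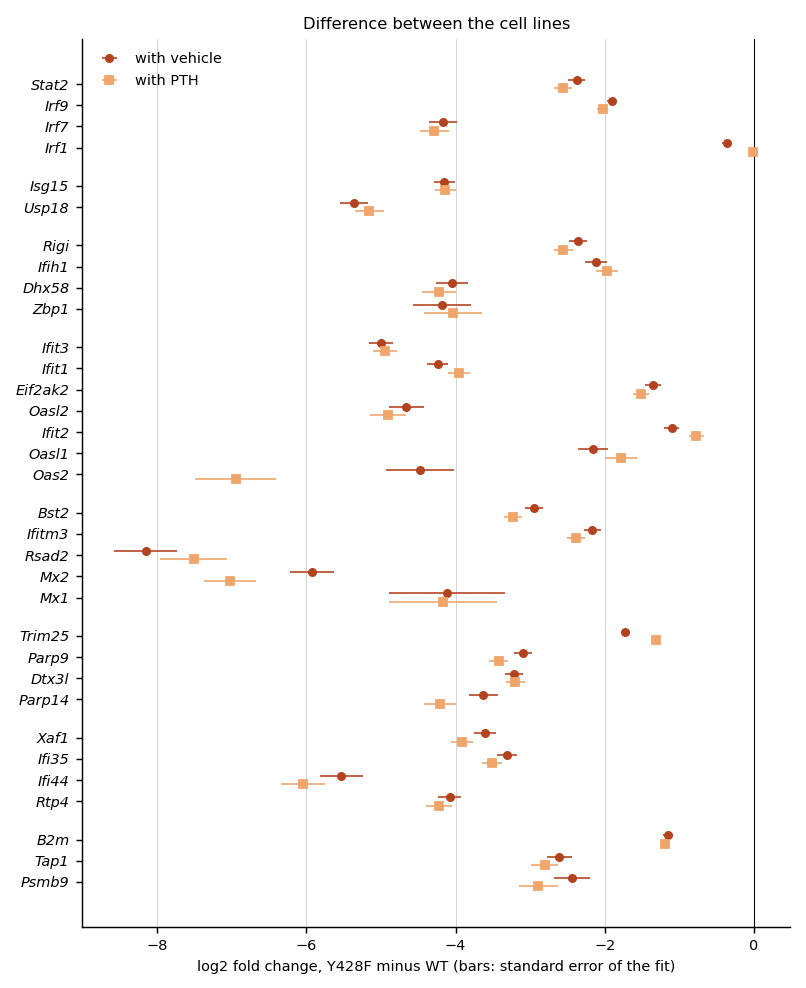
Log2 fold change of Y428F over WT cells (horizontal axis) with vehicle (circles) and with PTH (squares) for 33 genes, with bars for the standard error of the fit; Psmb8 is left out because its Y428F vehicle libraries held 0 counts. All 33 lie below 0 with vehicle, from -8.15 for Rsad2 to -0.37 for Irf1, and Irf1 with PTH sits at -0.01.

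With PTH in both lines the picture was the same for all but 1 gene. Of the 34 ISGs, 33 were lower in Y428F cells, none was higher, and 33 had every Y428F library below every WT library. In this comparison 23.0% of all genes were lower, 22.8% were higher, and 26.3% had no overlap in that direction. The median log2 fold change of the 34 was -3.62, and -3.85 without WT PTH library 3, where 33 were again lower, against 22.6% of all genes. With all libraries the 34 log2 fold changes were all below 0 in edgeR, so the count of higher ISGs was 0 at any p limit. It was 0 with DESeq2 too. Irf1 was the exception, at 41.7, 43.4 and 43.0 CPM in the WT line and 41.3, 42.9 and 42.9 CPM in the Y428F line with PTH, so the groups overlapped (log2 fold change -0.01 ± 0.07, adjusted p = 0.92). Ifit2 had the next smallest difference, 1.71-fold (log2 fold change -0.77 ± 0.10, adjusted p = 1.25e-06). Isg15 was 17.6-fold, Ifit3 30.9-fold and Usp18 35.6-fold lower with all libraries, and 20.1-fold, 35.8-fold and 41.1-fold lower without library 3.

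The 14 ISGs with an ISRE in the promoter window had a median log2 fold change of -4.11 between the lines with vehicle, and the 20 tested ISGs without one had -3.15. Both groups held genes with small and large differences: Rsad2 and Eif2ak2 had a match, and Mx2 and Irf1 had none in this window. These medians are a description and were not tested.

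The response to PTH within WT cells was smaller and mixed. Of the 34 ISGs, 7 fell and none rose at an adjusted p under 0.05 in the fit of the 6 WT libraries, where 4.91% of 15583 genes fell and 6.88% rose. At an unadjusted p under 0.05 there were 12 of the 34, against 25.2% of all genes. In edgeR the 7 were Trim25, Dtx3l, Irf1, Rtp4, Stat2, Ifit1 and Irf9, and the median log2 fold change of the 34 was -0.057. Trim25 went from 216, 219 and 215 CPM with vehicle to 139, 136 and 116 CPM with PTH (log2 fold change -0.73 ± 0.07, adjusted p = 1.61e-05). Irf1 went from 57.9, 65.9 and 61.9 CPM to 41.7, 43.4 and 43.0 CPM (log2 fold change -0.53 ± 0.07, adjusted p = 0.000444). For both genes every PTH library lay below every vehicle library, and for Irf1 library 3 lay between its group mates.

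Stat2 went from 148, 156 and 156 CPM to 121, 124 and 81.3 CPM in WT cells (log2 fold change -0.49 ± 0.12, adjusted p = 0.0152), where the last value is library 3. Dtx3l changed by a log2 fold change of -0.58, Rtp4 by -0.50, Ifit1 by -0.42 and Irf9 by -0.30. Ifit1 passed only just, at an adjusted p of 0.0499, and lost its call without any WT vehicle library or without PTH library 1 (edgeR adjusted p 0.0683 to 0.116). Irf9 lost its call without WT vehicle library 2 or 3 or PTH library 1 (0.0537 to 0.0769). Stat2 (0.0651) and Rtp4 (0.0723) lost theirs without WT vehicle library 3. DESeq2 also gave 7 lower and 0 higher, but with Oasl1 (adjusted p = 0.0358) in place of Ifit1 (adjusted p = 0.156).

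Without PTH library 3, the WT response took on a second direction. That library was singled out by the low levels of nearly all these genes, so leaving it out raises their PTH means by construction. In the fit without library 3, 9 ISGs fell and 8 rose, against 4.05% and 7.56% of all genes, and the median log2 fold change was 0.14. The 7 genes named above fell in this fit too, joined by Ifit3 and Rsad2. Both were called although their log2 fold changes shrank, from -0.43 to -0.22 for Ifit3 and from -0.58 to -0.29 for Rsad2. For the 7, the log2 fold changes were -0.65 for Trim25, -0.54 for Irf1, -0.43 for Dtx3l, -0.34 for Rtp4, -0.32 for Stat2, -0.26 for Irf9 and -0.23 for Ifit1. Of the 7, Stat2 and Ifit1 thus moved by over 1.5 times. The 8 that rose were Oas2 (log2 fold change 1.07), Ifi44 (0.59), Ifi35 (0.42), Ifitm3 (0.41), Bst2 (0.39), Isg15 (0.28), Ifit2 (0.27) and Parp9 (0.22). Ifi44 shows the weight of that library, since it measured 58.3, 58.1 and 54.7 CPM with vehicle, 82.1 and 89.6 CPM in PTH libraries 1 and 2, and 39.4 CPM in library 3. Isg15 did likewise, with 247 and 234 CPM in libraries 1 and 2 and 151 CPM in library 3, against 193 to 205 CPM with vehicle. Leaving out WT vehicle library 3 in its turn left 3 ISGs lower and none higher. The share of all genes called in that fit was not determined.

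**Figure D4:**
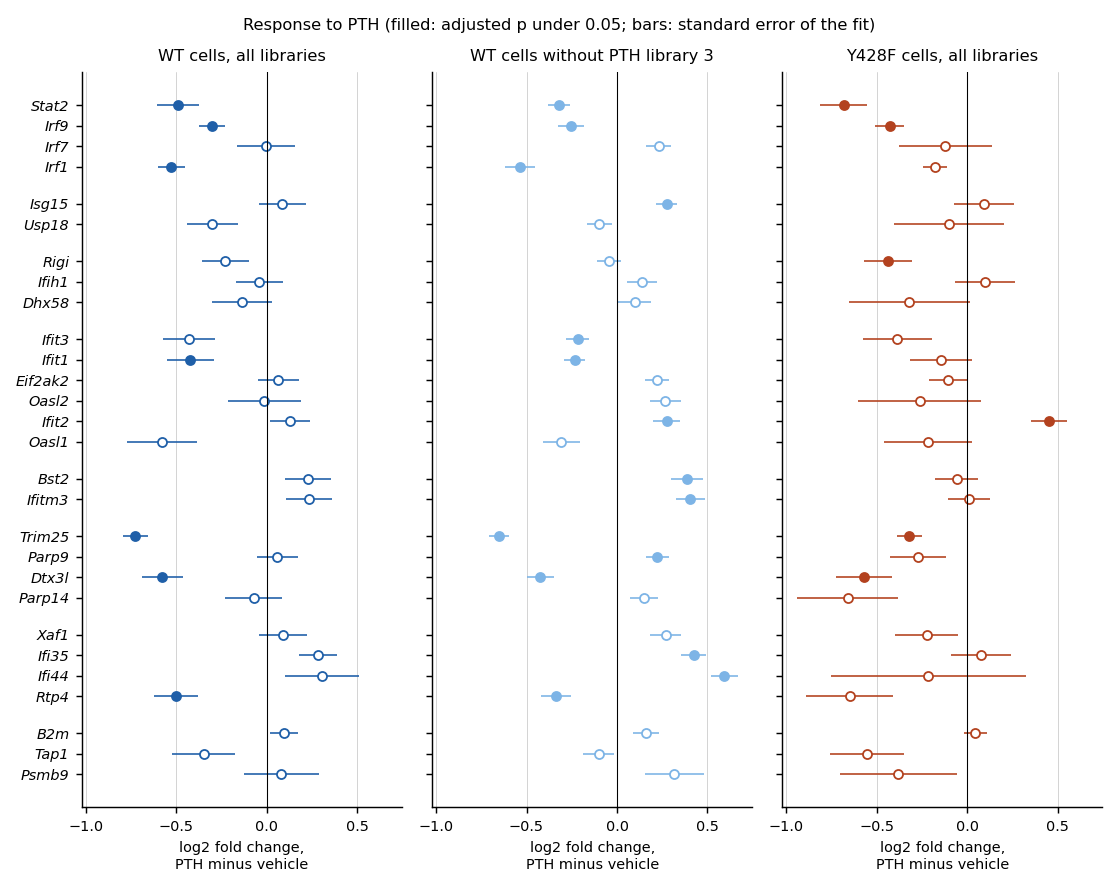
Log2 fold change of PTH over vehicle (horizontal axis) with the standard error of the fit (bars) for 28 genes in WT cells with all libraries (left), in WT cells without PTH library 3 (middle) and in Y428F cells (right); filled points have an adjusted p under 0.05. Psmb8, Mx1, Mx2, Oas2, Rsad2 and Zbp1 are left out for their low counts in Y428F cells. Trim25, Dtx3l, Irf9 and Stat2 are filled below 0 in all 3 panels, and Isg15, Bst2, Ifitm3, Ifi44, Ifi35 and Parp9 are filled above 0 in the middle panel alone.

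In Y428F cells, 5 ISGs fell and 1 rose with PTH, where 5.78% of 17691 genes fell and 6.61% rose. Stat2 went from 29.1, 31.2 and 28.1 CPM to 16.9, 20.8 and 17.5 CPM (log2 fold change -0.68 ± 0.13, adjusted p = 0.00124), with no overlap between the groups. Irf9 went from 28.7, 26.7 and 26.2 CPM to 21.4, 19.3 and 19.9 CPM (log2 fold change -0.43 ± 0.08, adjusted p = 0.000890). Trim25 (-0.32), Dtx3l (-0.57) and Rigi (-0.44) were the others that fell. Rigi lost its call when Y428F vehicle library 1 or 3, or any Y428F PTH library, was left out (edgeR adjusted p 0.051 to 0.118). Dtx3l lost it without Y428F vehicle library 1, PTH library 1 or PTH library 3 (0.0536 to 0.074). In these fits the log2 fold changes were -0.40 to -0.47 for Rigi and -0.51 to -0.54 for Dtx3l.

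Ifit2 was the single riser, from 51.4, 54.8 and 50.7 CPM with vehicle to 67.7, 72.7 and 74.5 CPM with PTH in Y428F cells (log2 fold change 0.45 ± 0.10, adjusted p = 0.00458). Ifit3 and Ifit1 of the same cluster had log2 fold changes of -0.39 and -0.14 there, neither past the limit. The median log2 fold change of the 34 was -0.22. The WT libraries enter this fit through the shared estimate of spread, and without WT PTH library 3 the fit gave 9 lower ISGs, against 6.41% of all genes, adding Tap1, Ifit3, Rtp4 and Parp14, with the fold changes unaltered.

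The responses of the 2 lines were then compared directly as an interaction. In edgeR none of the 34 ISGs passed the adjusted limit for a difference in PTH response, where 0.170% of all genes had a higher and 0.243% a lower response in Y428F cells. In edgeR 4 of the 34 were under an unadjusted p of 0.05, against 7.05% of all genes, and DESeq2 called 1 higher, Trim25. For Trim25 the response was 0.41 ± 0.09 higher on the log2 scale in Y428F cells (adjusted p = 0.0544 in edgeR, 0.00605 in DESeq2), since it fell by 0.73 in WT and by 0.32 in Y428F cells. For Irf1 the difference was 0.36 ± 0.10 (adjusted p = 0.167) and for Ifit2 0.33 ± 0.14 (adjusted p = 0.631). The other of the 4, Oas2, had the lower response in Y428F cells (-2.47 ± 1.08, edgeR adjusted p = 0.652). It rested on 18 counts with vehicle and 5 with PTH in that line. None of these genes is thereby shown to respond alike in both lines.

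Library 3 of the WT PTH group bore on this comparison as well. Leaving it out raises the WT response of nearly all these genes by construction, which moves the difference downwards. Without library 3 none of the 34 passed the adjusted limit in edgeR either, where 0.183% of all genes had a higher and 0.326% a lower response in Y428F cells. At an unadjusted p under 0.05 there were then 18 of the 34, against 9.36% of all genes, and 16 of the 18 had the lower response in Y428F cells, against 5.53% of all genes. The median difference of the 34 went from -0.13 to -0.33, while that of all genes was 0.002 both with and without the library. Parp9 (-0.49, adjusted p = 0.0826), Bst2 (-0.44, adjusted p = 0.0886), Rigi (-0.39, adjusted p = 0.0835) and Ifitm3 (-0.39, adjusted p = 0.0987) came closest among those with a lower response. For Trim25 the difference was 0.34 (adjusted p = 0.0585), for Irf1 0.36 (adjusted p = 0.162) and for Ifit2 0.18 (adjusted p = 0.580). Of the other ISGs, 8 of 82 passed with a lower response without the library and 0 of 83 with it.

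The ligands, receptors and factors around the ISGs were examined next. Of 13 interferon genes, 9 (Ifna1, Ifna2, Ifna4, Ifna5, Ifna6, Ifnab, Ifnk, Ifnl2 and Ifnl3) had 0 counts in all 12 libraries, and no interferon gene had more than 7 counts in any library. Their summed level was at most 0.493 CPM in a library. Ifnb1, the interferon once named after fibroblasts, averaged 0.111 CPM in the WT line and 0.0364 CPM in the Y428F line with vehicle, a difference that did not pass the test (adjusted p = 0.434) and could hardly be seen at this depth.

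Of 9 receptor and kinase genes, 8 were tested, and with vehicle 4 were lower and 2 higher in Y428F cells, where 22.7% of all genes were lower and 22.4% higher. Tyk2 measured 32.0, 36.9 and 39.1 CPM in the WT line and 21.4, 23.2 and 22.3 CPM in the Y428F line (log2 fold change -0.69, adjusted p = 4.74e-06). Ifnar2 measured 62.5, 59.5 and 61.4 CPM against 42.4, 40.2 and 40.7 CPM (log2 fold change -0.57, adjusted p = 5.00e-07). Ifngr2 and Il10rb, receptor chains for type II and type III interferon, were lower by log2 fold changes of -0.41 and -0.34. Jak2 (0.28) and Ifngr1 (0.18) were higher, and Ifnar1 and Jak1, at -0.11 and 0.024, did not pass. None of the 8 reached a log2 fold change of -1, which 33 of the 34 ISGs passed. With PTH in both lines, 5 of the 8 were lower in Y428F cells and 0 were higher. In that comparison 23.0% of all genes were lower and 22.8% higher. Ifnar1 was then among the lower genes (log2 fold change -0.14, edgeR adjusted p = 0.0481).

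Outside the set, 12 genes for STATs, IRFs and IRF2-binding proteins were tested. Of these, 8 were lower and 1 was higher in Y428F cells with vehicle, beside the same shares of all genes. The higher gene, Irf2bpl, and Irf2bp2 among the lower ones encode IRF2-binding proteins and are not STAT or IRF genes. Irf4, a lymphoid factor of low level here, was lower by a log2 fold change of -2.87. Stat3, which serves IL-6 family cytokines, and Stat5a were lower by -0.47 each, and Irf3, the factor that starts interferon transcription, was not past the limit (0.039, adjusted p = 0.747).

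The wider set of 90 other ISGs, also chosen with earlier results known, was mostly lower too. Of 83 that were tested, 72 were lower and 1 was higher in Y428F cells with vehicle, with a median log2 fold change of -2.09. In that comparison 22.7% of all genes were lower and 22.4% higher. Iigp1, an immunity-related GTPase, measured 58.9, 57.3 and 51.2 CPM in WT against 0.548, 0.556 and 0.546 CPM in Y428F cells (log2 fold change -6.65, adjusted p = 9.27e-13). Gbp6, a guanylate-binding protein, and Ddx60, a helicase of antiviral responses, were lower by -6.47 and -6.27. The single higher gene, Mlkl, the effector of necroptosis, measured 53.2, 55.9 and 56.3 CPM against 67.4, 61.8 and 61.8 CPM (log2 fold change 0.21, adjusted p = 0.0201); it was named after its value was seen. With PTH, 75 were lower and 2 higher in Y428F cells, and without WT PTH library 3 it was 77 lower and 1 higher of 82.

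Other genes of antigen presentation were lower in 15 of 21 tested cases and higher in 3 with vehicle, against 22.7% and 22.4% of all genes. The class I heavy chain H2-K1 measured 239, 281 and 277 CPM in the WT line and 62.8, 64.0 and 68.0 CPM in the Y428F line with vehicle (log2 fold change -2.03, adjusted p = 4.40e-13), and Nlrc5, the activator of class I genes, was lower by -2.61. The constitutive proteasome, whose catalytic subunits the immunoproteasome subunits replace, went the opposite way: 8 of 14 genes were higher, 1 lower, and the median log2 fold change was 0.27. Psmb5, which PSMB8 replaces, was higher by 0.67 (adjusted p = 1.24e-06).

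Markers of cell types were counted in the same libraries. Of 12 stromal markers, 10 were tested and expressed in part at very high levels, led by Col1a2, whereas Thy1 was at 0 in all libraries and Nt5e and Alpl were near 0. The summed stromal level was 20680, 22860 and 24540 CPM in the WT line and 15100, 14040 and 14140 CPM in the Y428F line with vehicle. Of the 10, 9 were lower and 0 higher, against 22.7% and 22.4% of all genes. Their median log2 fold change was -1.13, and that of the 34 ISGs was -3.46. Col3a1 had the largest difference, a log2 fold change of -2.04, followed by Vcam1 (-1.76) and Pdgfra (-1.59). The part of a general difference between the lines in the ISG result was not tested.

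Cells of the immune lineages left few counts. The 10 macrophage and myeloid markers summed to 9.15, 7.79 and 7.83 CPM in the WT line and 18.3, 17.0 and 17.4 CPM in the Y428F line with vehicle, with Cd14 the most abundant, Fcer1g and Cx3cr1 at 0, and Lyz2, Ptprc and Cd14 higher in Y428F cells. These levels were higher in the line where the ISGs were lower. Of the lymphoid markers Cd3e, Ms4a1 and Klrb1c were at 0 and Nkg7 had at most 2 counts in a library. Of the plasmacytoid dendritic markers Siglech was at 0 and the most abundant, Ly6d, had at most 15 counts in a library. The 4 endothelial markers summed to 0.910 to 1.77 CPM in the WT line and 7.94 to 9.94 CPM in the Y428F line with vehicle, nearly all of it Cdh5.

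The transcript of the altered gene was measured as a check of the labels. Yap1 measured 181, 192 and 194 CPM in the WT line and 149.5, 141 and 149 CPM in the Y428F line with vehicle (log2 fold change -0.37 ± 0.05, adjusted p = 7.70e-06), and reads of an introduced copy may or may not have been counted with it. PTH raised Yap1 by 0.36 (0.38 without library 3) in WT cells and by 0.22 in Y428F cells on the log2 scale. Both rises passed the limit in edgeR (adjusted p = 0.00154 and 0.00739). The difference between the 2 responses did not (-0.125 ± 0.075, edgeR interaction adjusted p = 0.811).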

How the data were processed

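RNA-Seq libraries were made from poly-A RNA and, by the submitters' processing notes and the study's methods, aligned with STAR 2.7.10b to GRCm39 and quantified with RSEM. The authors deposited 1 matrix of expected counts per gene, of which 6.32% of values were not whole; the strand setting is not given in the sources used here. Of its identifiers 56236 were matched to GENCODE vM39 and 744 were not. Expected counts were rounded, and a gene was tested if its sum over the libraries fitted reached 10 counts, with edgeR 4.0.16 (TMM, quasi-likelihood, Benjamini-Hochberg adjustment; called at an adjusted p under 0.05) in R 4.3.3. The WT response was fitted on 6 libraries and the other comparisons on 12. DESeq2 1.42.0, other normalizations and filters, a replicate block and libraries left out in turn were alternatives, and the scripts were tested on simulated data. No 2 libraries of a group agreed within sampling noise (chi-square per degree of freedom 2.94 to 15.2). Precision is limited by this spread between libraries as well as by counting error, and the intervals for low counts cover counting error only. All 35 members were named, and from each other list up to 3 called genes with the largest absolute log2 fold change and a mean of at least 1 CPM, with any ligand, receptor, JAK or STAT gene. The members and lists were chosen with earlier results of these data known. Some items of these lists are not reported here.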

Additional observations from a re-analysis of the deposited data

Results flagged for a closer look

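Among the listed genes, 2 differed between the lines in their response to PTH by a test of the difference itself (edgeR interaction term with Benjamini-Hochberg adjustment), both genes of the IRF2-binding protein family. For Irf2bp2 the response was 0.69 ± 0.09 higher on the log2 scale in Y428F cells (adjusted p = 0.000635). It measured 211, 243 and 232 CPM with vehicle and 217, 213 and 199.0 CPM with PTH in WT cells, and 117.5, 105.5 and 104.5 CPM with vehicle and 152, 168 and 165 CPM with PTH in Y428F cells. For Irf2bpl the response was 0.46 ± 0.09 higher (adjusted p = 0.0215), with log2 fold changes of -0.13 in the WT line and 0.33 in the Y428F line. Without WT PTH library 3 the differences were 0.66 for Irf2bp2 (adjusted p = 0.00168) and 0.41 for Irf2bpl (adjusted p = 0.035).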

How the results depend on the processing

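The lower level of the ISGs in Y428F cells kept its direction and its side of the threshold in every alternative tried: 34 were lower with vehicle and 33 with PTH under all of them, left-out libraries included, and no result changed sign while called. The PTH responses did change. In WT cells, 7 lower and 0 higher became 13 lower and 5 higher with every gene of at least 1 count, 11 lower and 1 higher with the replicate block, and 3 lower at an adjusted p under 0.01 with a log2 fold change beyond 0.3; leaving out 1 library gave 3 to 9 lower and 0 to 8 higher, with 8 higher without PTH library 3. In Y428F cells, 5 lower became 9 without a filter and 3 under the stricter rule, and 3 to 9 with 1 library left out: 9 without WT PTH library 3, and 3 without Y428F vehicle library 1, PTH library 1 or PTH library 3. For the difference between responses, 0 higher became 1 with library totals in place of TMM, with filterByExpr and with DESeq2, in each case Trim25, and 2 higher and 1 lower without a filter; leaving out 1 library gave 0 to 1 higher. Without a filter the change comes with more genes of few counts in the fit, and the cause was not tested. The share of all genes called was determined only for the main fits and those without WT PTH library 3. For the other alternatives, whether these counts moved along with those of all genes was not tested. The replicate numbers did not pair the libraries: deviations of same-numbered libraries had a mean correlation of 0.029 over 18 pairs (-0.15 to 0.27), so the replicate block is given as an alternative only. Depth limits Psmb8, Mx1 and the interferon genes, and 3 libraries per group limit the small PTH responses.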

Other observations

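Sensors and adaptors upstream of interferon genes, and negative regulators of the pathway, were listed separately, but the lists share some genes. Adar and Ifi204 were also counted among the 90 other ISGs, and Trex1 was counted in both lists given here. Of 27 tested sensors and adaptors, 13 were lower and 3 higher in Y428F cells with vehicle, against 22.7% and 22.4% of all genes, with a median log2 fold change of -0.28. Adar, the editor of double-stranded RNA, measured 151, 177 and 182 CPM in the WT line and 32.4, 32.8 and 34.7 CPM in the Y428F line (log2 fold change -2.35 in edgeR, adjusted p = 3.97e-13), and Tlr3, the endosomal sensor of double-stranded RNA, was lower by -1.88. With PTH, Ikbke, a kinase of the interferon-inducing pathway, fell in both lines, by 0.42 in WT and by 0.55 in Y428F cells on the log2 scale. Tbk1, its partner kinase, rose in both, by 0.27 in WT (adjusted p = 0.0456) and by 0.41 in Y428F cells (adjusted p = 0.000644 in edgeR), and was named after its values were seen.

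Of 17 negative regulators, 6 were lower and 4 higher in Y428F cells with vehicle, with a median log2 fold change of -0.050. The shares of all genes were 22.7% lower and 22.4% higher, so these counts lay near the background. Ptpn6, a phosphatase, was higher by 2.22 at a level of 1.08 CPM in the WT line and 5.09 CPM in the Y428F line, Trex1, a DNA exonuclease, was lower by -1.26, and Tnfaip3, the A20 inhibitor, was higher by 0.85. With PTH in Y428F cells, Ptpn2 (0.39), a phosphatase of JAK and STAT proteins, Nfkbia (0.33) and Cyld (0.27) rose.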
